A study of Mus musculus with 2 samples.

Results

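RNA-Seq values of 9 genes of retinoid handling were examined at the brown preadipocyte stage (D0) and the differentiated adipocyte stage (D7). The genes were Rbp4, Aldh1a1, Aldh1a2, Aldh1a3, Crabp1, Crabp2, Rara, Rarb and Rarg. They were picked by symbol as carriers, synthesis enzymes and receptors of the pathway, with the very low D7/D0 ratio of Crabp1 already known, and form 9 of the 23361 genes with a value in both libraries. Both stages came from interscapular brown adipose tissue of newborn C57BL/6 mice, with 1 library per stage. The D0 cells were undifferentiated. The D7 cells had received IBMX, dexamethasone and indomethacin for 2 days, and the labels give insulin and T3 in the medium of both stages. The methods of the study list insulin and T3 for the differentiation medium only. The methods of the study name the substrain C57BL/6J. The labels name primary cultures, whereas the methods of the study describe cells immortalized with large T, and whether cells of several animals were pooled is not given in the sources used here. Adipoq, which marks mature adipocytes, had FPKM values of 0.221 and 943, and the other 4 adipocyte markers (Fabp4, Plin1, Cidec and Lpl) were also higher at D7 by more than 2.0-fold.

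Retinol, the circulating form of vitamin A, is carried in blood by RBP4. In cells it is oxidized to retinal by alcohol and retinol dehydrogenases, and retinal is oxidized to retinoic acid by the retinaldehyde dehydrogenases of the ALDH1A group. CRABP1 and CRABP2 bind retinoic acid in the cell. Retinoic acid activates the nuclear receptors RARα, RARβ and RARγ, which bind DNA together with retinoid X receptors (RXR), and CYP26 enzymes break it down. Retinoic acid is known to block adipogenesis when it is added early to preadipocytes, and in brown adipocytes it is known to induce Ucp1.

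A promoter, for these sequences, is the 250 bases before and 50 bases from the start of a RefSeq transcript (GRCm38.p6, the build that mm10 also names). The RefSeq table held 13 promoters for 7 of the 9 genes, the exceptions being Crabp2 and Aldh1a3. Stretches of 4 promoters that end 1 base before the transcript start are shown. Those of Crabp1, Aldh1a1 and Rbp4 belong to the genes that differed most between the stages, and that of Rarb holds the known response element of its own receptor family. Capitals mark GGGCGG or its complement (the GC box) in Crabp1, the repeated GTTCA in Rarb, CCAAT in Aldh1a1 and TATAAA (the TATA box) in Rbp4. They were read from chr9:54764548-54764747 (plus strand) for Crabp1, chr14:16575477-16575576 (minus strand) for Rarb, chr19:20601868-20601967 (plus strand) for Aldh1a1 and chr19:38124812-38124911 (minus strand) for Rbp4.
Crabp1: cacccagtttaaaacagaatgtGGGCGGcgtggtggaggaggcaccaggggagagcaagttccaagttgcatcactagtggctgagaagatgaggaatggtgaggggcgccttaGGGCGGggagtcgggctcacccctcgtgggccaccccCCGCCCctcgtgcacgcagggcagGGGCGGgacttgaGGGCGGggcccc
Rarb: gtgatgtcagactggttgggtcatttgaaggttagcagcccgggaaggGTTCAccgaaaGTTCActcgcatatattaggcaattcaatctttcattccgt
Aldh1a1: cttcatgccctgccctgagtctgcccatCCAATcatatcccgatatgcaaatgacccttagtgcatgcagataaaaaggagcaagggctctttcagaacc
Rbp4: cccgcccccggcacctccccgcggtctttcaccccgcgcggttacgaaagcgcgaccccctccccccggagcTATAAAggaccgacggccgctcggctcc

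The Crabp1 promoter held the GC box at 5 places, the farthest from base -178, and neither of the other boxes named here. The GC box occurred on either strand in 35.7% of the 32851 promoters of the table. The repeat in the Rarb promoter (GTTCA, 6 other bases and GTTCA again) lay from base -52 to -37. This arrangement, searched on both strands, occurred in 25 promoters of the table (0.0761%), and among the 13 promoters of these genes it occurred in that of Rarb only. The same 5 letters or GGTCA, repeated after 2, 3 or 6 bases, gave no other match in the 13 promoters. In the Aldh1a1 promoter shown, 47% of the bases were G or C and 1 CpG was present, against medians of 52.7% and 7 over all promoters. Its CCAAT lay at base -72, and another CCAAT spanned the start. The TATA box, held by 13.6% of all promoters, was found at base -28 of the Rbp4 promoter shown, which starts 510 bases inside the locus of the table. The promoter at the outer end of Rbp4 held no TATA box. CCAAT on either strand occurred in 37.4% of all promoters. These matches describe letters in short windows and say nothing on binding.

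FPKM scales the fragments of a gene to its transcript length and to the library size, so levels of different genes can be compared. The authors deposited 1 FPKM per gene and library, and there is no replicate check, hence no p-value. Fragment numbers behind the FPKM values were recovered from the steps in which low values occur. Intervals are exact 95% intervals on these fragments, Poisson for a level and Clopper-Pearson for a ratio. They cover counting error only and compare 2 libraries, not the stages. A gene was called changed at a D7/D0 ratio of at least 2.0 or at most 0.5. This is the fold threshold of the study, applied here to the deposited FPKM values. The study counted more lower than higher genes, whereas these ratios gave 1980 lower and 2767 higher genes. Its fold for Foxd3 was also smaller than the ratio of 5.89 found here. Calls near the threshold, such as those of Rara, Aldh1a2 and Rarb, may therefore differ from those of the study. Genes listed at 0 in a library have no ratio, and for them a limit of 3 fragments was used. In whole cultures, fewer cells of a type and less RNA per cell cannot be told apart.

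Among the 9 genes, Crabp1, Crabp2 and Rarg were called lower at D7, Aldh1a1 and Rarb were called higher, and Rbp4 was listed at 0 at D0 only. Rara, Aldh1a2 and Aldh1a3 differed by less than 2.0-fold. The choice of these genes drew on this contrast, so the counts are a description. Of the 8 genes with a ratio, 3 were lower and 2 higher, where 13.2% of all 14986 genes with a ratio were lower and 18.5% higher (31.7% in either direction). Among the 11967 genes with FPKM of 1 or more in at least 1 library, the shares were 11.9% and 15.6%. The median log2 ratio was -0.91 over the 8 genes and 0.015 over all genes. Listing at 0 at D0 only, as for Rbp4, was seen in 4.33% of the genes with values. FPKM reached 1 in at least 1 library for 6 of the 9 genes.

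**Figure D1:**
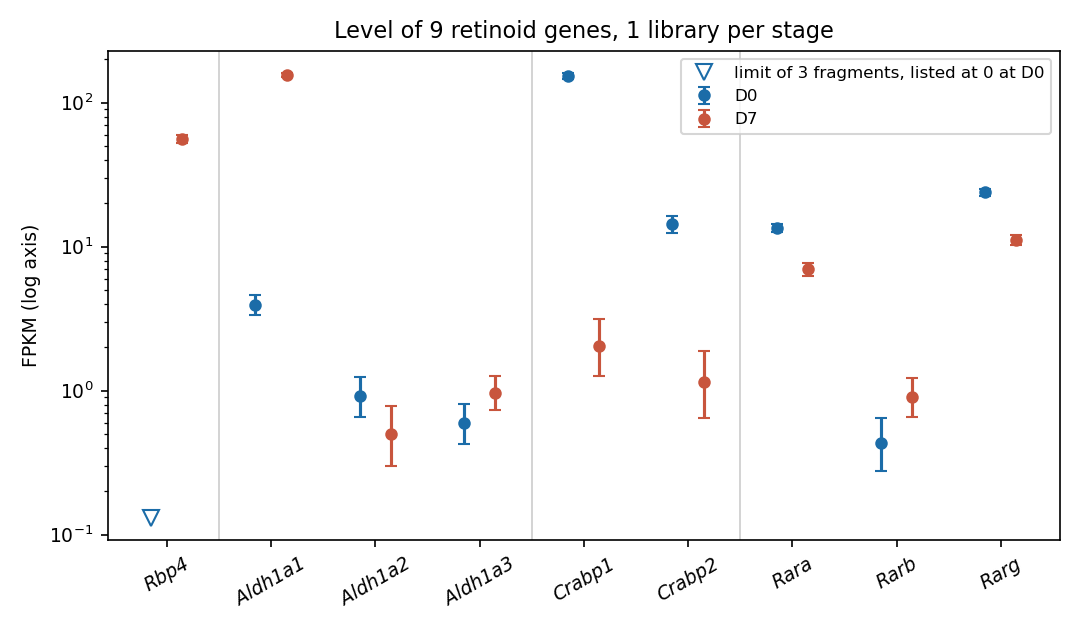
FPKM on a log axis for each gene at D0 (blue) and D7 (red), with exact 95% Poisson intervals from recovered fragments; the open triangle is the limit of 3 fragments (FPKM 0.131) for Rbp4, listed at 0 at D0. Crabp1 at 154 was highest at D0 and Aldh1a1 at 156 was highest at D7, while the receptors kept their order.

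Rbp4 encodes the serum carrier of retinol, made mainly by liver and also secreted by adipocytes. The gene (ENSMUSG00000024990.13, GENCODE M21) spans 38116629 to 38125281 of chromosome 19 (mm10, minus strand), and no other annotated gene overlaps its locus. Listed at 0 at D0, it reached an FPKM of 55.8 (52.6 to 59.3) at D7, from about 1082 fragments. Against the limit of 3 fragments at D0, an FPKM of 0.131, it was at least 425-fold higher at D7. Rbp4 took rank 1548 of 23361 by level at D7. Ttr, whose product binds RBP4 in serum, was listed at 0 in both libraries. Stra6, the receptor through which cells take up retinol from RBP4, had 2 fragments at D0 and 1 at D7, and Stra6l, a related receptor of liver and intestine, had 4 and 1. A change of these receptors was not detectable at this depth.

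Of the 3 retinaldehyde dehydrogenases, only Aldh1a1 was called changed. It lies on the plus strand of chromosome 19 from 20492715 to 20643465 (ENSMUSG00000053279.8), and the locus in the table starts at 20601982, near the promoter shown. Its FPKM was 3.92 at D0 from 156 fragments and 156 at D7 from 5261 fragments. The ratio was 39.7 (95% interval 33.9 to 46.9), a log2 ratio of 5.31. By level the gene moved from rank 8789 to rank 543. No annotated gene overlaps the locus.

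Aldh1a7, a neighbouring rodent copy of Aldh1a1, went from an FPKM of 0.743 to 209 with a ratio of 282 (197 to 418). Over the coding sequence of 1503 bases, Aldh1a1 and Aldh1a7 were identical at 91.6% of positions. With the 5 mismatches that the alignment of the authors allowed, 31.7% of the 90-base windows of the Aldh1a1 transcript also matched the Aldh1a7 transcript. How reads of such windows were assigned is not given in the sources used here, so the division between these genes is uncertain. Their summed FPKM was 4.66 before and 365 after differentiation (ratio 78.3), and Aldh1a1 made up 84.1% of the sum at D0 and 42.6% at D7. No 90-base window of Aldh1a1 matched Aldh1a2 or Aldh1a3 in this way.

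Aldh1a2, the main enzyme of retinoic acid synthesis in the embryo, was scarce at both stages. It lies on chromosome 9 from 71215789 to 71296243 (plus strand, ENSMUSG00000013584.5), where Gm48124 overlaps it on the opposite strand. Its FPKM was 0.916 from 41 fragments at D0 and 0.500 from 19 fragments at D7. The ratio of 0.546 (0.299 to 0.961) did not reach 0.5, and its interval includes 0.5. Aldh1a3, the third enzyme of the group, lies on chromosome 7 from 66390890 to 66427517 (minus strand, ENSMUSG00000015134.15). It had 41 fragments at D0, an FPKM of 0.593, and 57 at D7, an FPKM of 0.970. The ratio of 1.64 (1.08 to 2.51) did not reach 2.0. Of the summed FPKM of the 3 members of this group, Aldh1a1 contributed 72.2% at D0 and 99.1% at D7. The coding sequences of these 3 genes were 68.2% to 69.9% identical.

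Crabp1 was lower at D7 by the largest factor of the 9 genes. It lies on the plus strand of chromosome 9 from 54764748 to 54773110 (ENSMUSG00000032291.8), has 4 exons and a single annotated transcript, and lies apart from other annotated genes. Crabp1 had an FPKM of 154 at D0 from 1855 fragments and 2.06 at D7 from 21 fragments. The ratio of 0.0134 (0.00826 to 0.0205), a log2 ratio of -6.22, is a 74.7-fold lower value. By level the gene moved from rank 518 to rank 10435. Crabp2, which is known to pass retinoic acid on to the receptors, lies on chromosome 3 from 87948666 to 87953376 (plus strand, ENSMUSG00000004885.5). It had an FPKM of 14.3 from 222 fragments at D0 and 1.14 from 15 fragments at D7. Its ratio was 0.0798 (0.0439 to 0.134), a 12.5-fold lower value, so both genes of this pair were lower and their intervals did not overlap. The level of Crabp1 was 10.7 times that of Crabp2 at D0 and 1.80 times at D7, where the intervals of their levels overlapped (1.27 to 3.14 and 0.640 to 1.89). Their coding sequences were 70.8% identical and shared no 90-base window.

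Crabp1 had the smallest ratio of the 10773 genes that reached an FPKM of 1 in each library, which was known when the genes were chosen. The genes next to it in this order were Cck (ratio 0.0340), Acta1 (0.0381), Tnc (0.0513) and Ccl7 (0.0546), and Crabp2 held place 10. The place of Crabp1 depends on what counts as well expressed. Among the 6000 genes with FPKM of at least 10 at D0 and above 0 at D7, the ratios of Amd1 (0.00261), Cxcl14 (0.00841) and Ptgs2 (0.0128), named after their values were seen, were lower. Crabp1 then held place 4 and Crabp2 place 15. Over the 2 libraries, the genes most like Crabp1 by distance in log2 ratio and log2 FPKM at D0 were Ptgs2 (distance 1.18), Cck (1.71) and Cxcl14 (1.82). Ptgs2, the inducible cyclooxygenase, went from an FPKM of 67.8 to 0.870.

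**Figure D2:**
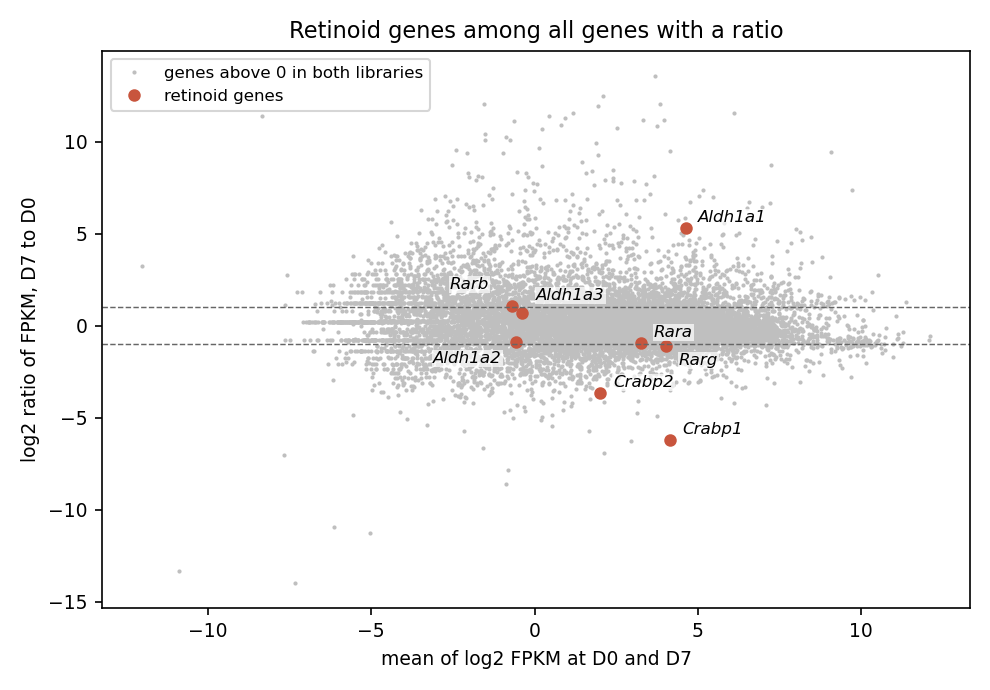
Log2 ratio of FPKM (D7 to D0) against the mean of log2 FPKM of both libraries for 14986 genes (grey) and 8 retinoid genes (red), with dashed lines at 2.0-fold. Crabp1 at -6.22 and Crabp2 at -3.65 lie among the lowest and Aldh1a1 at 5.31 among the higher ratios, while Rara, Rarg, Rarb, Aldh1a2 and Aldh1a3 lie near the dashed lines.

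Of the receptors, Rarg was called lower at D7, Rara missed the threshold narrowly and Rarb, the scarce member, was called higher. Rarg (chromosome 15, 102234938 to 102257517, minus strand, ENSMUSG00000001288.15) had FPKM values of 23.9 and 11.2, from about 1404 and 558 fragments. The ratio of 0.468 has an interval from 0.423 to 0.516, which includes the threshold of 0.5. Rara (chromosome 11, 98927818 to 98974942, plus strand, ENSMUSG00000037992.16) had FPKM values of 13.4 and 6.94, from about 928 and 409 fragments. Its ratio of 0.518 (0.460 to 0.583) fell just short of the threshold. The intervals of these receptors overlapped, so that their different calls do not separate them, and both intervals lay below 1. Gm22061 overlaps Rara on the same strand. Rara, Rarb and Rarg have 7 annotated transcripts each. The recovered fragment numbers of Rara and Rarg were not whole and are approximate, whereas those of Rarb lay within 0.1 of whole numbers.

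Rarb lies on the minus strand of chromosome 14 from 16430839 to 16819156 (ENSMUSG00000017491.9), and Top2b overlaps its locus on the opposite strand. It had an FPKM of 0.431 from 24 fragments at D0 and 0.908 from 43 fragments at D7. The ratio of 2.11 (1.25 to 3.63) has an interval that includes 2.0, and the log2 ratio went from 1.08 to 0.93 with a pseudocount of 0.1 added and to 0.42 with 1, both under 2.0-fold. Rarb is the gene whose promoter carries the repeat shown above. Summed over the 3 receptors, FPKM was 37.7 before and 19.0 after differentiation (ratio 0.504). Rarg made up 63.4% of this sum at D0 and 58.7% at D7, Rara 35.5% and 36.5%, and Rarb 1.14% and 4.77%. The order of the receptors by level was therefore the same at both stages, and no interval of a level overlapped that of a neighbour. Their coding sequences were 72.9% to 77.9% identical and shared no 90-base window.

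The retinoid X receptors, the partners of these receptors, stayed under 2.0-fold except for Rxrg. Rxra had an FPKM of 20.9 and 32.4 (ratio 1.55, 1.47 to 1.64) and Rxrb of 14.5 and 20.3 (1.40, 1.27 to 1.54). Rxrg, listed at 0 at D0, reached 2.05 at D7 on 73 fragments, at least 28.7-fold higher than the limit at D0. The summed FPKM of the RXR genes was 35.4 at D0 and 54.7 at D7. Ppard, a receptor to which FABP5 is known to deliver retinoic acid, had an FPKM of 18.6 and 24.0 (ratio 1.29).

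**Figure D3:**
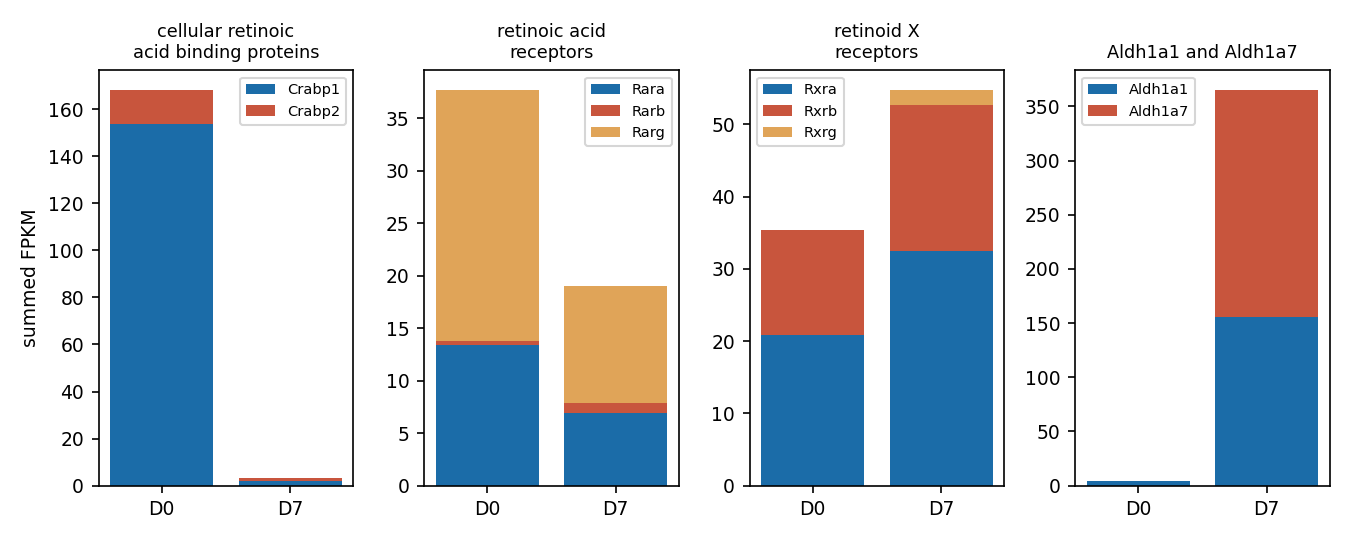
Summed FPKM at D0 and D7, stacked by gene, for the binding proteins, the retinoic acid receptors, the retinoid X receptors and the pair Aldh1a1 and Aldh1a7, each on its own axis from 0. The sums went from 168 to 3.20, from 37.7 to 19.0, from 35.4 to 54.7 and from 4.66 to 365.

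At D0 the order by level was Crabp1, Rarg, Crabp2, Rara, Aldh1a1, Aldh1a2, Aldh1a3, Rarb and Rbp4. Crabp2 and Rara, Aldh1a2 and Aldh1a3, and Aldh1a3 and Rarb had intervals that overlapped. At D7 it was Aldh1a1, Rbp4, Rarg, Rara, Crabp1, Crabp2, Aldh1a3, Rarb and Aldh1a2. From Crabp1 down to Aldh1a2, each gene overlapped the next one in this order, so these 5 levels are not separated from their neighbours by counting error.

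**Figure D4:**
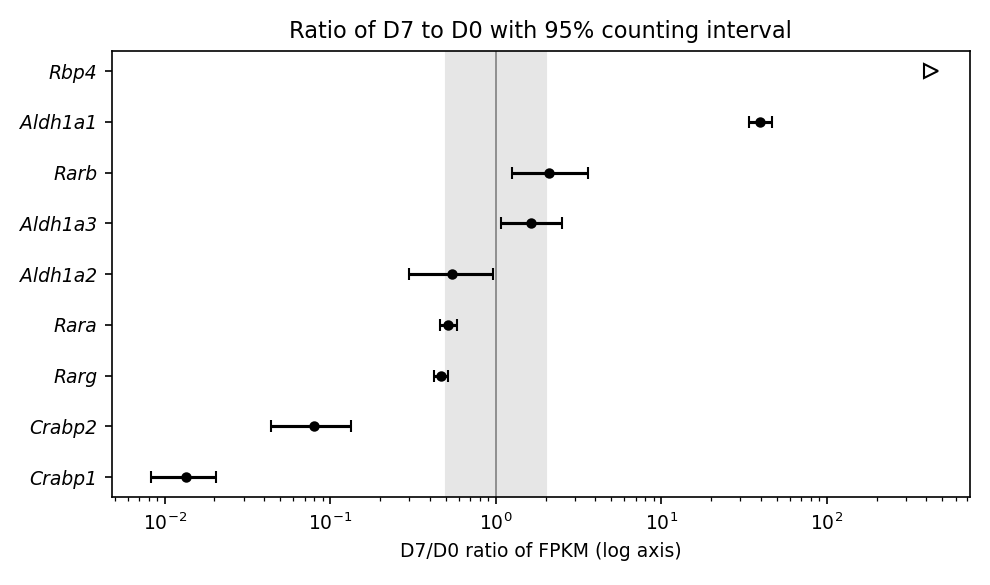
D7/D0 ratio of FPKM on a log axis with exact 95% Clopper-Pearson intervals; the grey band spans 0.5 to 2.0 and the open triangle for Rbp4 is a lower bound of 425. The intervals of Rarb, Aldh1a3, Aldh1a2, Rara and Rarg cross an edge of the band, and those of Crabp1, Crabp2 and Aldh1a1 lie outside it.

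A list of 61 genes of the pathway, the 9 genes included, was set by role. A ratio could be given for 47 of them, of which 17 were higher by at least 2.0-fold, 6 were lower and 24 stayed under 2.0-fold, where 18.5% of all genes with a ratio were higher and 13.2% lower. When values below 0.01 were raised to 0.01 and libraries were scaled to equal medians, these were 20 higher and 14 lower genes of 61. That setting shifted all genes by -0.35 on the log2 scale, so the shares above do not apply to it. In the deposited values, the genes with no ratio were 5 at 0 in the D0 library only, 3 in the D7 library only and 6 in both. Without the 9 genes, 15 of 39 were higher and 3 lower, with Stra6l and Bco1 among the lower ones on at most 6 fragments. The median log2 ratio was 0.63 over the list and 0.70 without the 9 genes, against 0.015 over all genes.

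Of the intracellular carriers, Fabp5, a fatty acid carrier that also binds retinoic acid, was higher, with 57.0 and 1462 (ratio 25.7, 24.0 to 27.4). The level of Fabp5 was 3.97 times that of Crabp2 at D0 and 1278 times at D7. The annotation holds a copy of Fabp5, Fabp5l2, with which it may share reads. Among all 15 genes of the intracellular lipid-binding family, to which the CRABP genes belong, 8 had a ratio. Of these 8 genes, 5 were lower and 2 higher, against 13.2% and 18.5% of all genes with a ratio. The 5 lower genes included Crabp1, Crabp2, Fabp3 (0.192) and Fabp7 (0.197, on 18 and 3 fragments), while Fabp4 (710) and Fabp5 were higher, and Pmp2 stayed under 2.0-fold.

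Of 15 genes of retinol oxidation, 11 had a ratio, of which 5 were higher and none was called lower. Over all genes with a ratio, 18.5% were higher and 13.2% lower. Adh1, an alcohol dehydrogenase active on retinol, rose from 10.2 to 117 (ratio 11.5, 10.1 to 13.1), and an antisense gene, Gm16559, overlaps it. Rdh12 had 1.18 and 70.4 (ratio 59.5, 43.2 to 84.3) and Rdh11 had 26.1 and 70.8 (2.71, 2.56 to 2.87). Both enzymes are also known to work in the other direction, from retinal to retinol, so the counts of this list give no direction of conversion. Adh7 was higher with a ratio of 3.79, on a locus that 0610031O16Rik overlaps on the opposite strand. The fifth, Rdh1, had 1 fragment at D0 and 4 at D7, with an interval that includes 1. Rdh10, the retinol dehydrogenase that is required in the embryo, had FPKM values of 7.40 and 4.53, a ratio of 0.613 (0.529 to 0.710) that did not reach 0.5. Adh5, Rdh5, Rdh13 and Rdh14 had ratios between 0.964 and 1.65, and Rdh9 had 10 fragments at most. Of the genes of retinal reduction, Dhrs3 and Dhrs4 had ratios of 1.28 and 1.94, and Dhrs9 rose from an FPKM of 0.371 to 0.914 (2.47, 1.58 to 3.79).

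Aox1, an aldehyde oxidase that can also oxidize retinal, rose from an FPKM of 1.96 to 13.8 (ratio 7.04). Cyp26b1, which degrades retinoic acid, rose from 0.845 at D0, on 72 fragments, to 9.61 at D7, on 698 fragments (ratio 11.4, 8.94 to 14.7). Cyp26a1 was listed at 0 in both libraries and Cyp26c1 had 1 fragment at D0. For storage of retinol as ester, Lrat was listed at 0 in both libraries, whereas Dgat1, known mainly for triglyceride synthesis, rose from 11.4 to 155 (ratio 13.5). Lipe, the hormone-sensitive lipase that also splits retinyl esters, rose from 2.65 with a ratio of 106 (92.4 to 123), but its locus in the table overlaps Ceacam1 and other genes. Scarb1, a receptor through which carotenoids and lipoprotein lipids enter cells, rose from 17.8 to 70.7 (3.98, 3.69 to 4.29). The carotenoid-cleaving genes Bco1 and Bco2 had at most 6 fragments in a library.

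**Figure D5:**
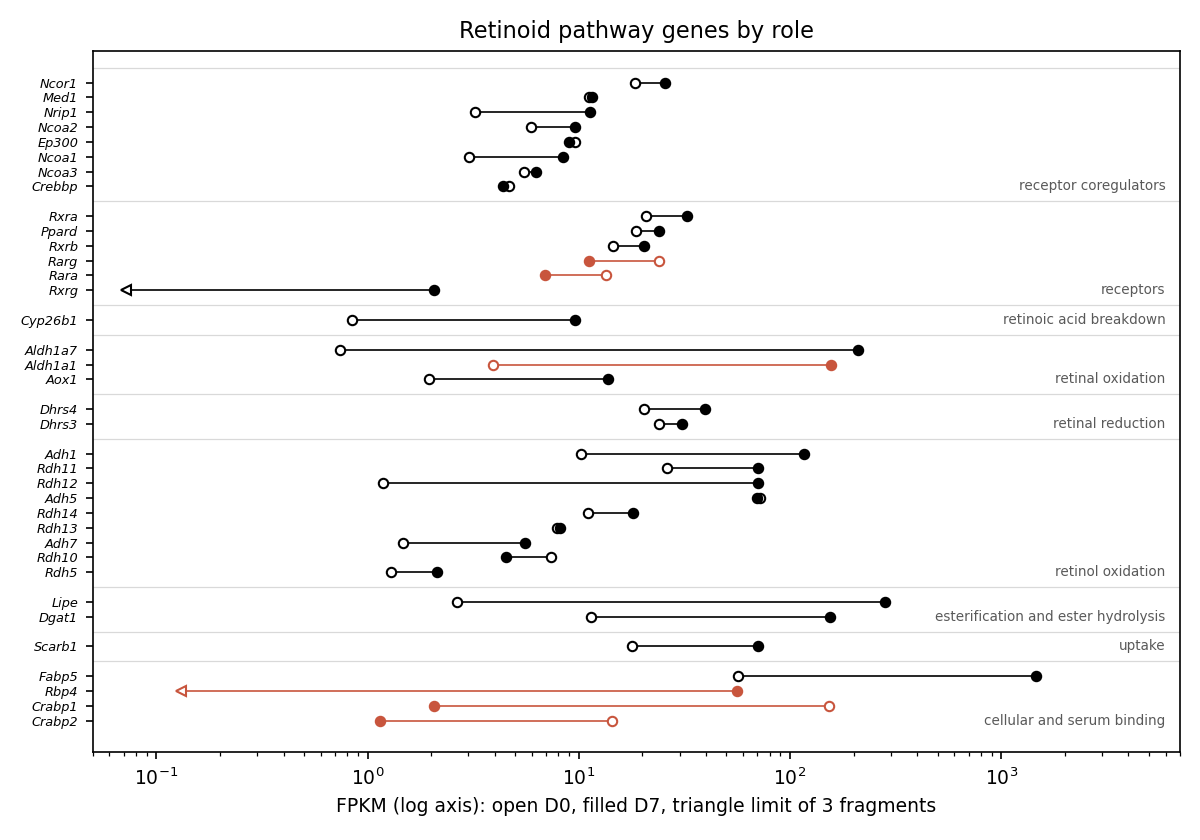
FPKM on a log axis at D0 (open) and D7 (filled) for 36 of the 38 pathway genes that reached an FPKM of 1 in at least 1 library (the other two are not reported here), by role, with the retinoid genes described above in red and a triangle for the limit of 3 fragments. Crabp1 and Crabp2 move to the left, and the genes listed under retinol and retinal oxidation mostly move to the right.

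Of 9 receptor coregulators, Ncoa1 (ratio 2.78) and Nrip1 (3.51), a corepressor known to restrain Ucp1, were higher, and the other 7 stayed under 2.0-fold. Among all genes with a ratio, 18.5% were higher, a share near that of this list. Ncor1, a corepressor of unliganded receptors, had FPKM values of 18.4 and 25.7 (ratio 1.40, 1.34 to 1.46).

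A list of 23 genes known to respond to retinoic acid in other cells gave ratios for 17, of which 7 were higher, 3 lower and 7 under 2.0-fold, with a median log2 ratio of 0.058. Over all genes with a ratio, 18.5% were higher and 13.2% lower, and the median was 0.015. Higher were Rarb, Cyp26b1, Nrip1, Rarres1 (18.9), Rarres2 (21.9), which encodes the adipokine chemerin, Tgm2 (2.44) and Pck1 (34.1, on 1 and 29 fragments). Crabp2 and Meis1 (0.440) were among the lower genes. Ucp1 was listed at 0 at D0 and had 122 fragments at D7. Cyp26a1, Stra8, Hoxb1, Cdx1 and Lrat were listed at 0 in both libraries, and Hoxa5, Hoxb4 and Meis2 had ratios between 0.707 and 0.952. Among 20 aldehyde dehydrogenases, 17 had a ratio, of which 8 were higher and 2 lower, against the same shares over all genes. Aldh1a1 and Aldh1a7 showed the highest ratios of the 17, followed by Aldh6a1 (18.5), Aldh1l1 (16.0) and Aldh5a1 (10.2). Aldh3b2, listed at 0 at D0, has no ratio. It reached an FPKM of 19.0 on 686 fragments at D7, at least 269-fold higher than the limit at D0.

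Markers of other cells moved along with these genes. Of 7 macrophage genes, 6 were higher at D7 and Cd14 stayed under 2.0-fold, and their summed FPKM was 145 at D0 and 491 at D7. All 5 genes of Schwann cells and neural crest were higher, with sums of 4.16 and 11.1. The share of higher genes over all genes with a ratio was 18.5%. The fibroblast list had sums of 3894 and 1592, with Col1a1, Col1a2 and Thy1 lower, Dpt higher and Pdgfra under 2.0-fold. The pericyte list had sums of 133 and 47.7, with Pdgfrb and Cspg4 lower and the scarce Rgs5 and Kcnj8 higher. The other lists had low sums or lacked their defining genes. Sums were 1.06 and 1.00 over 5 endothelial genes with Tie1 at 0, and 6.41 and 2.22 over 5 mesothelial genes, mostly from Krt19. Over 6 skeletal muscle genes, with Myod1 and Myf5 at 0, sums were 51.2 and 4.81. Acta1 made up most of this sum at D0, and Des (3.03) and Acta1 (1.73) did at D7. Sums were 0.101 and 0.290 over 4 keratinocyte genes with Krt14 at 0, and 0.395 and 0.921 over 5 dermal papilla genes. The part of these cells in the values of the retinoid genes was not tested.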

How the data were processed

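RNA-Seq of brown preadipocytes (D0) and brown adipocytes (D7) was analysed, with 1 library per stage. The authors removed duplicate and rRNA reads, aligned to mm10 and gene sequences with SOAP2 and deposited FPKM values. The submitters' processing notes name Bowtie2. GeneSpring 7.3 is named in the study's methods for FPKM and changed genes. The libraries marked strand, but use of strand in counting is not given in the sources used here. Of 27324 rows, 3963 carried no value.

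The fragment totals by which FPKM had been scaled, 21471400 (D0) and 18265800 (D7), were recovered from 602 single-exon genes of at least 600 bp, with 179 and 182 bp taken from each length. All 79 and 90 values of up to 20 fragments lay within 0.1 of a whole number, against 20.0% and 15.2% with shuffled lengths. Lengths were those of the named transcript in GENCODE M21, adjusted to the ends of the deposited locus.

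On simulated data for D7 against D0, all 200 changed genes were called, 0 of 11017 unchanged genes were, and 95% of intervals held the true fold. That was a check of the calculation. It gives no error rate for the calls in the real libraries, which have no replicate. The members and lists were chosen with earlier results of these data known. Named are the 9 genes, list members with FPKM of at least 1 in a library, the 5 smallest ratios where both libraries reach an FPKM of 1, and the 3 genes nearest to Crabp1. Other list members are named where a count needs them, and 4 list members are not reported here. Alternatives were pseudocounts of 0.1 and 1, TPM, 4 other scalings, filters at FPKM of 1 and at 10 fragments, summed rows and a threshold of 4.0-fold. Coding sequences were aligned with Biopython 1.88. Intervals used scipy 1.17.1, tables pandas 2.3.3 and numpy 2.4.6, and plots matplotlib 3.10.9, under Python 3.11.15.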

Additional observations from a re-analysis of the deposited data

How the results depend on the processing

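Crabp1, Crabp2, Rarg and Aldh1a1 kept their direction and their side of 2.0-fold under every alternative that gave them a value, with log2 ratios from -6.58 to -5.66 for Crabp1, of at most -2.84 for Crabp2, from -1.45 to -1.03 for Rarg and from 4.96 to 5.36 for Aldh1a1. Crabp1 kept the smallest ratio where both libraries reach an FPKM of 1. Setting values under 0.01 to 0.01 and dividing each library by its median shifted all genes by -0.35 on the log2 scale. It gave log2 ratios of -1.45 for Rarg, -1.30 for Rara and 4.96 for Aldh1a1. Lower genes were then 5 of the 9 instead of 3 of the 8 with a ratio, with Rara and Aldh1a2 added. In the pathway list they were 14 of 61 instead of 6 of 47. Shares over all genes under this setting are not given, so these counts are a description. The same setting also brought Rarb under 2.0-fold, while Rbp4 gained a ratio and was higher, so the count of higher genes stayed at 2. This exchange of Rarb for Rbp4 also occurred with both pseudocounts. A pseudocount of 1 gave log2 ratios of -2.84 for Crabp2 and 4.99 for Aldh1a1. The median was then -0.35 over the 9 genes, Rbp4 included, against -0.91 over the 8 genes with a ratio. A threshold of 4.0-fold left 1 higher gene of the 9 and 10 of the pathway list, and no share over all genes at this threshold is given. The filter at FPKM of 1 left 1 higher gene of the 9, because Rarb, Aldh1a2 and Aldh1a3 have no value under it. The other 130 values stayed within their counting interval, within 0.5 on the log2 scale for the median, or within 1.5 times for counts. No paired analysis was possible because each stage has 1 library. Rarb, Aldh1a2, Aldh1a3 and both CRABP genes at D7 rest on 15 to 57 fragments, and the spread between cultures is unknown.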
